A study of Mus musculus with 12 samples.

Results

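YY1 binding was examined at 9 receptor genes of blood cells, Kit, Flt3, Csf1r, Csf2rb, Csf3r, Epor, Il7r, Il6ra and Tfrc, out of 21755 protein-coding genes of the GENCODE M21 annotation (mouse build GRCm38, or mm10). The genes were chosen by name as growth factor and cytokine receptors that guide blood formation, with the transferrin receptor Tfrc added for iron uptake. A locus was the gene body with 20 kb on either side. Peaks in it were sorted into those at the gene's own promoter (within 3 kb of a transcription start site, or TSS, of the gene), those at the promoter of another gene, and TSS-distal peaks farther than 3 kb from every TSS. All 9 genes could be placed, and none of them lies on the X chromosome.

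Chromatin immunoprecipitation with an anti-YY1 antibody (Cell Signaling) had been done on bone marrow Lin− cells, the stem and progenitor cells left once cells with mature lineage markers are depleted. Cells came from female mice of 3 months on a mixed 129Sv4/Jae x B6 background. Of 4 libraries, 2 were wild type (WT) and 2 were XistΔ/Δ, the homozygous Xist knockout. In it floxed Xist was removed by Vav-iCre, a Cre recombinase driven by sequences of the blood gene Vav1. Per the methods, Vav-iCre was carried by a C57BL/6J line. Whether the WT mice carried the transgene is not stated, and the labels do not say that libraries of a genotype came from different animals, so p-values measure only the spread between these libraries. The question was whether loss of Xist RNA, which coats and silences the inactive X chromosome, went together with other YY1 binding at these autosomal loci.

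Cytokine receptors sit in the membrane of blood progenitors and pass on the presence of a growth factor through kinases of the JAK family or through a kinase domain of their own. Which receptors a progenitor carries helps to set the lineage it can enter, and most of these genes are switched on by lineage factors acting at promoters and enhancers. YY1 is a zinc-finger protein found in nearly all cell types, with many of its sites at CpG-rich promoters, where it takes part in activation, repression and contacts between promoters and enhancers.

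Depth differed between replicates more than between genotypes. The replicate 2 lists, with 15933 (WT) and 18113 (XistΔ/Δ) peaks, came from 50.0 and 59.5 M tags, against 9553 and 10075 peaks from 24.9 and 23.1 M tags in replicate 1. A peak at the start of Xist was 3083 and 3222 bp wide in the WT libraries and was not called in either XistΔ/Δ library. This matches their label as Xist knockouts, though the labels do not say which part of Xist was deleted. The lists give positions only, so a peak was measured by its presence and its width, which has a floor of 501 bp shared by 18.5% to 24.0% of the peaks of a library.

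YY1 peaks at the 9 loci were few. WT replicates 1 and 2 had 6 and 10 peaks, and XistΔ/Δ replicates 1 and 2 had 8 and 18. XistΔ/Δ replicate 2, the deepest library, stood above the rest, and the other 3 libraries overlapped. Of these 42 peaks, 20 (47.6%) lay at the member's own promoter, 17 (40.5%) at the promoter of a neighbouring gene and 5 (11.9%) were TSS-distal. Own-promoter peaks were 501 to 2350 bp wide with a median of 704 bp, peaks at neighbouring promoters 501 to 1658 bp with a median of 943 bp, and TSS-distal peaks 501 to 981 bp with a median of 501 bp. The members' peaks lay below the middle of their own lists by width, with a median width percentile of 39.2 and 48.5 in the WT libraries and 41.0 and 29.97 in the XistΔ/Δ libraries. Merged across libraries where they shared at least 1 bp, the peaks formed 18 regions, of which 12 were consensus regions, called in at least 2 of the 4 libraries, and 4 were called in all 4. In shares, 66.7% of the member regions were consensus regions and 22.2% were called in all 4 libraries, against 71.7% and 39.2% of the 19768 regions of the genome. The 6 regions called in 1 library (33.3%, against 28.3%) were all from XistΔ/Δ replicate 2. Genome-wide that library held 3671 of the 5600 regions called in 1 library (65.6%).

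**Figure D1:**
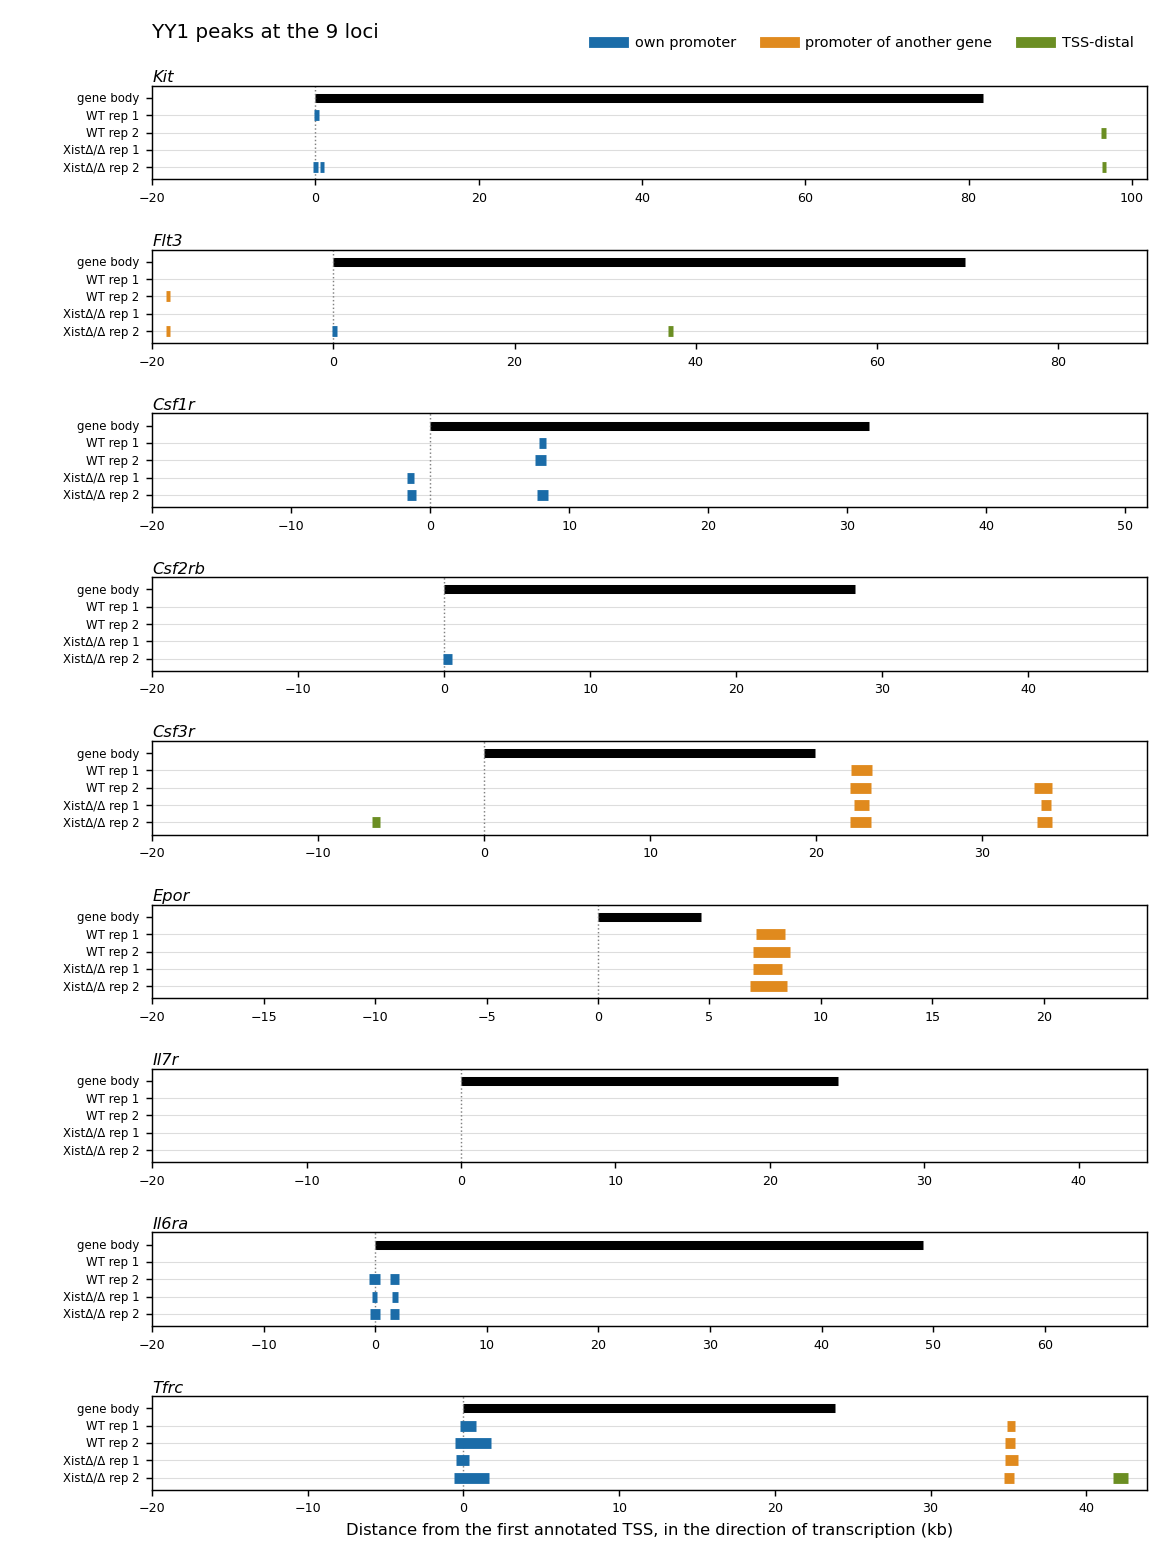
YY1 peaks (coloured bars, drawn to scale) at the 9 loci in the 4 libraries, by distance in kb from the first annotated TSS in the direction of transcription, with the gene body in black and colours for own promoter, promoter of another gene and TSS-distal. Tfrc has a bar at its start in all 4 libraries, Epor and Csf3r have bars in all 4 libraries only beyond the end of the gene, and the Il7r panel is empty.

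The 9 promoters ran from CpG-poor to CpG-rich, and the sequences just before the start of 5 of them are shown to make this visible, with every CpG in capitals. They are the strand of the gene, 5′ to 3′, read from GRCm38 and ending at the outermost start annotated by GENCODE or RefSeq. The Tfrc stretch is chr16:32608696-32608895 (plus strand), that of Il6ra is chr3:89913197-89913396 (minus strand), that of Kit is chr5:75574716-75574915 (plus strand), that of Epor is chr9:21963577-21963776 (minus strand) and that of Il7r is chr15:9530177-9530376 (minus strand).
Tfrc: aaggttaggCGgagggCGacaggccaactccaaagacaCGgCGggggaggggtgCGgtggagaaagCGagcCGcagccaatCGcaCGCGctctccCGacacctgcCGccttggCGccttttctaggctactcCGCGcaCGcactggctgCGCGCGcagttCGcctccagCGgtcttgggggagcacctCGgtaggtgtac
Il6ra: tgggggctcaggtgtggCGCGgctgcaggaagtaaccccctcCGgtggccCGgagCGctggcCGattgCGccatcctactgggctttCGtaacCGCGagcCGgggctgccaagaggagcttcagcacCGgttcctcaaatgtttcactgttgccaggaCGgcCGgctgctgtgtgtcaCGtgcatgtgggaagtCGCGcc
Kit: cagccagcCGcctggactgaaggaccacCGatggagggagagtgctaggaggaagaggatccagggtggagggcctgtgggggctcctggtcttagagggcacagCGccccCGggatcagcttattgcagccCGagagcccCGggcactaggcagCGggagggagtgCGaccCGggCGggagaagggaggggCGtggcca
Epor: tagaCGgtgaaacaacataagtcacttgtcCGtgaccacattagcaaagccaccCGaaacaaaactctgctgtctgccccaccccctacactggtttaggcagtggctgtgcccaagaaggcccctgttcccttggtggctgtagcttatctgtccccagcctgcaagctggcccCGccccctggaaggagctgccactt
Il7r: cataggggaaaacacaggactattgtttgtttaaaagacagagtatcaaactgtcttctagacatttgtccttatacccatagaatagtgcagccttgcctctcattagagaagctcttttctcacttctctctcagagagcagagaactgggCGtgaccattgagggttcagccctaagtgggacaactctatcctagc
The Tfrc stretch of 200 bases holds 22 CpG, that of Il6ra 17, that of Kit 11, that of Epor 4 and that of Il7r 1.

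Over the 501 bp around the annotated start, the ratio of observed to expected CpG was 0.934 at Tfrc, 0.880 at Il6ra, 0.774 at Flt3 and 0.675 at Kit. It was 0.353 at Csf3r, 0.268 at Csf1r, 0.201 at Il7r, 0.196 at Epor and 0.119 at Csf2rb. When all protein-coding genes were split by this ratio into 4 groups of equal size, 11.2%, 27.9%, 66.6% and 83.7% had a consensus YY1 region at their promoter, from the lowest to the highest group. Tfrc and Il6ra fall in the highest group, and YY1 covered the start of Tfrc in 4 libraries and that of Il6ra in 3. Flt3 and Kit, in the third group, had a peak over the start in 1 and 2 libraries. Il7r and Epor, in the lowest group, had no own-promoter peak, and neither had Csf3r in the second. Csf1r, also in the second group, had own-promoter regions in up to 3 libraries, but none of them over a TSS. Csf2rb, in the lowest group, had a peak over its start in 1 library.

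**Figure D2:**
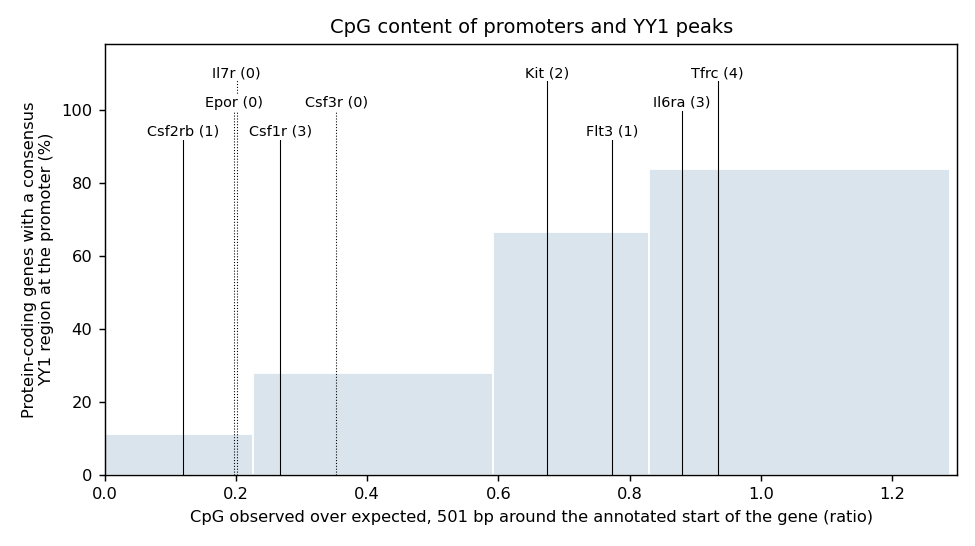
Share of protein-coding genes (%) with a consensus YY1 region at their promoter, in 4 equal groups of genes by the observed over expected CpG ratio of the 501 bp around the start (x axis). Vertical lines mark the 9 members with the number of libraries in their best own-promoter region in brackets and are dotted where that is 0, and the bars rise from 11.2% to 83.7%.

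Tfrc, the receptor that takes up iron-loaded transferrin, carried the widest YY1 region of the set. It lies at chr16:32608281-32610701, over the TSS and the beginning of the gene (ENSMUSG00000022797.16, chr16:32608920-32632794, plus strand). The peak was 966 bp wide in WT replicate 1, 2350 bp in WT replicate 2, 854 bp in XistΔ/Δ replicate 1 and 2255 bp in XistΔ/Δ replicate 2. The replicate 2 libraries were wider in both genotypes, and the genotypes overlapped. Widths were also ranked as percentiles among the 14168 consensus regions of the genome in each library, with 0 where no peak was called. The rank still varies with depth, since regions without a peak lie below all called ones. A peak of 501 bp stood at 42.1 (WT) and 40.6 (XistΔ/Δ) in replicate 1. In replicate 2 such a peak stood at 7.99 (WT) and 5.47 (XistΔ/Δ). At this equal width the rank was thus lower in XistΔ/Δ within both replicate numbers. By this rank the Tfrc promoter stood at 71.4 (WT) and 70.0 (XistΔ/Δ) in replicate 1, and at 92.3 (WT) and 91.6 (XistΔ/Δ) in replicate 2. It was lower in XistΔ/Δ within both replicate numbers, by less than the distance between the replicates of either genotype. No peak in another own-promoter region of the set was wider than 1024 bp.

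Il6ra, the chain that binds interleukin-6 (ENSMUSG00000027947.11, chr3:89864059-89913196, minus strand), had a pair of regions at its 5′ end. The region over the TSS, chr3:89912735-89913761, also covers the start of the antisense gene Gm42809, and strand cannot be told from these peaks. It held no peak in WT replicate 1 and peaks of 1024 bp in WT replicate 2, 501 bp in XistΔ/Δ replicate 1 and 931 bp in XistΔ/Δ replicate 2. The second region, chr3:89911039-89911860, lies in the first intron, 1302 bp from the TSS. No peak was called there in WT replicate 1, and the widths in the remaining libraries were 815, 501 and 761 bp in the same order. Both regions were thus absent only from the WT library of lower depth, a pattern shared by 1399 of the 19768 regions genome-wide, although XistΔ/Δ replicate 1 had fewer tags than that library. By width rank, neither region moved one way in both replicate numbers.

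Kit, the receptor tyrosine kinase for stem cell factor that marks stem and progenitor cells (ENSMUSG00000005672.12, chr5:75574916-75656722, plus strand), had only narrow peaks. The region over its TSS and first exon, chr5:75574681-75575342, was called at 627 bp in WT replicate 1 and at 501 bp in XistΔ/Δ replicate 2, with no peak in WT replicate 2 or XistΔ/Δ replicate 1. The libraries with a peak at the Kit start thus shared neither genotype nor replicate number, and this combination was seen at 84 of the 19768 regions. Both peaks were narrow, and what set their presence was not tested. A peak of 501 bp in the first intron (chr5:75575530-75576030) was called in XistΔ/Δ replicate 2 alone. The TSS-distal region of Kit, chr5:75671147-75671801, lies between genes 96558 bp from the first TSS of Kit, beyond the end of the gene. It was called at 655 bp in WT replicate 2 and at 501 bp in XistΔ/Δ replicate 2, the deeper library of each genotype. It was the only TSS-distal consensus region of the 9 loci, so that 1 of 9 members had one, against 11.9% of protein-coding genes.

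The distal Kit region is 1 of 2 member regions that hold the longer YY1 motif AAGATGGC. Both strands were searched, in the 501 bp around the middle of each region, for AAGATGGC and for its core ATGGC, which lies within it. The stretch chr5:75671362-75671561 (plus strand) is shown with the matches in capitals, the long form among them.
Kit distal: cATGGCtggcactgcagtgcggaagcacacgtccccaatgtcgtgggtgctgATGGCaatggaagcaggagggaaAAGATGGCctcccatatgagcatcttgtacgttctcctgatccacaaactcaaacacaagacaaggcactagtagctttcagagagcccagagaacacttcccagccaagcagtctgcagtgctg
A match of letters says nothing of occupancy by itself. The long form stood in 2 of the 18 member regions (11.1%), against 6.68% of all regions, and the core in 12 of 18 (66.7%), against 66.1%. Among consensus regions alone these were 2 and 9 of 12 (16.7% and 75%), against 7.32% and 66.3%. Among promoters of protein-coding genes, windows of the same length held the long form in 4.80% and the core in 58.8%. The start regions of Kit and Tfrc held neither form in that window.

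Flt3, the receptor tyrosine kinase of early lymphoid and myeloid progenitors (ENSMUSG00000042817.15, chr5:147330741-147400489, minus strand), had no own-promoter peak in 3 of 4 libraries. XistΔ/Δ replicate 2 had a peak of 501 bp over the TSS (chr5:147400117-147400617) and another of 501 bp inside the gene (chr5:147363023-147363523), where it overlaps an annotated exon. A region at the start of the long noncoding RNA gene D5Ertd605e (chr5:147418471-147418988) was called at 501 bp in both replicate 2 libraries and in neither replicate 1 library.

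Csf1r, the receptor of macrophage colony-stimulating factor (ENSMUSG00000024621.16, chr18:61100598-61132149, plus strand), held the only region of the set that separated the genotypes. It lies 1039 bp upstream of the nearest annotated Csf1r TSS, between genes, at chr18:61098903-61099559. No peak was called there in either WT library, whereas XistΔ/Δ replicate 1 had a peak of 501 bp and XistΔ/Δ replicate 2 one of 657 bp. Regions called in both XistΔ/Δ libraries and no WT library made up 1.24% of consensus regions genome-wide, and the Csf1r region was the 1 such region among the members' 12. The opposite pattern, seen at 0.452% of consensus regions, was found at 0 of the 12. The Csf1r peaks stood in the lower part of their lists, at place 8345 of 10075 and 13698 of 18113 in the deposited order, with 17.2% and 24.4% of the list after them. That order is not explained in the headers. Across the peaks of a library, which are not independent replicates, its rank correlation with width was 0.922 to 0.961. With every list shortened to its top 9553 peaks, only XistΔ/Δ replicate 1 kept the peak. The window held AAGATGGC once.

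The second Csf1r region, chr18:61108139-61109076, is intronic and lies 2260 bp from the nearest of the gene's 6 start sites. Its peak was 501 bp in WT replicate 1, 770 bp in WT replicate 2 and 751 bp in XistΔ/Δ replicate 2, and none was called in XistΔ/Δ replicate 1. In percentiles this was 42.1 and 30.7 in WT against 0 and 20.8 in XistΔ/Δ, lower in XistΔ/Δ within both replicate numbers. Ranked by list order in place of width, the region stood at 25.0 (WT) and 28.5 (XistΔ/Δ) in replicate 2. By width rank the 2 regions of Csf1r thus pointed in opposite directions, but not by list order. Both count as own-promoter regions at 3 kb and as TSS-distal at 1 kb, as does the Il6ra intron, so that at 1 kb own-promoter consensus regions numbered 3 in place of 6 and TSS-distal ones 4 in place of 1.

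Csf2rb, the common β chain of the receptors for GM-CSF, interleukin-3 and interleukin-5 (ENSMUSG00000071713.6, chr15:78325752-78353847, plus strand), had a single peak of 641 bp over its TSS (chr15:78325673-78326313), in XistΔ/Δ replicate 2. Il7r, the interleukin-7 receptor α chain of lymphoid progenitors (ENSMUSG00000003882.5, chr15:9505788-9530176, minus strand), had no peak of any library in the gene or its flanks. An empty locus was found for 35.3% of protein-coding genes and for 1 of the 9 members.

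At Csf3r and Epor the YY1 regions called in all libraries belonged to neighbours. Csf3r, the receptor of the neutrophil growth factor G-CSF (ENSMUSG00000028859.14, chr4:126024550-126044440, plus strand), had no peak at its own promoter. Downstream of it, the start of Mrps15, which encodes a mitochondrial ribosomal protein, was covered by chr4:126046552-126047875, with widths of 1228 bp (WT) and 922 bp (XistΔ/Δ) in replicate 1 and of 1288 bp (WT) and 1284 bp (XistΔ/Δ) in replicate 2. The start of Oscp1 (chr4:126057633-126058771) had no peak in WT replicate 1, 1118 bp in WT replicate 2, and 626 and 943 bp in XistΔ/Δ. A TSS-distal peak of 501 bp, 6272 bp upstream of Csf3r (chr4:126017778-126018278), was called in XistΔ/Δ replicate 2 alone.

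Epor, the erythropoietin receptor of red cell precursors (ENSMUSG00000006235.6, chr9:21958897-21963506, minus strand), likewise had no own-promoter peak. The region chr9:21954908-21956665, at the start of the DNA repair gene Swsap1, was 1309 bp wide in WT replicate 1, 1640 bp in WT replicate 2, 1309 bp in XistΔ/Δ replicate 1 and 1658 bp in XistΔ/Δ replicate 2. The widths were the same in replicate 1 of the 2 genotypes and differed by less than the distance between replicates in replicate 2. Its percentile was 83.7 (WT) and 88.8 (XistΔ/Δ) in replicate 1 and 78.5 (WT) and 79.2 (XistΔ/Δ) in replicate 2. The whole region held 10 matches of the core ATGGC, the most of any member region. A stretch of 200 bases with 3 of them, chr9:21955733-21955932 (plus strand), is shown with matches on either strand in capitals. It was picked among stretches with few bases of untranslated exon sequence, so a denser stretch may have been passed over.
Swsap1 start: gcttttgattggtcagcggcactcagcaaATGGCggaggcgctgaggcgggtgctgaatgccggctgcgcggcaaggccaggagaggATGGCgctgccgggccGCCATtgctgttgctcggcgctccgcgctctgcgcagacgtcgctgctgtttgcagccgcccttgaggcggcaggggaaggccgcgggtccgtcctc
The reverse complement of the core reads GCCAT, which is how the last match appears.

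Beside Tfrc, the start of the kinase gene Tnk2 (chr16:32643663-32644531) had a peak in every library, of 501 bp (WT) and 862 bp (XistΔ/Δ) in replicate 1 and of 640 bp (WT) and 626 bp (XistΔ/Δ) in replicate 2. It was the only region called in all 4 libraries that was widest in a replicate 1 library. A TSS-distal peak of 981 bp in an intron of Tnk2 (chr16:32650627-32651607) was called in XistΔ/Δ replicate 2 alone.

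**Figure D3:**
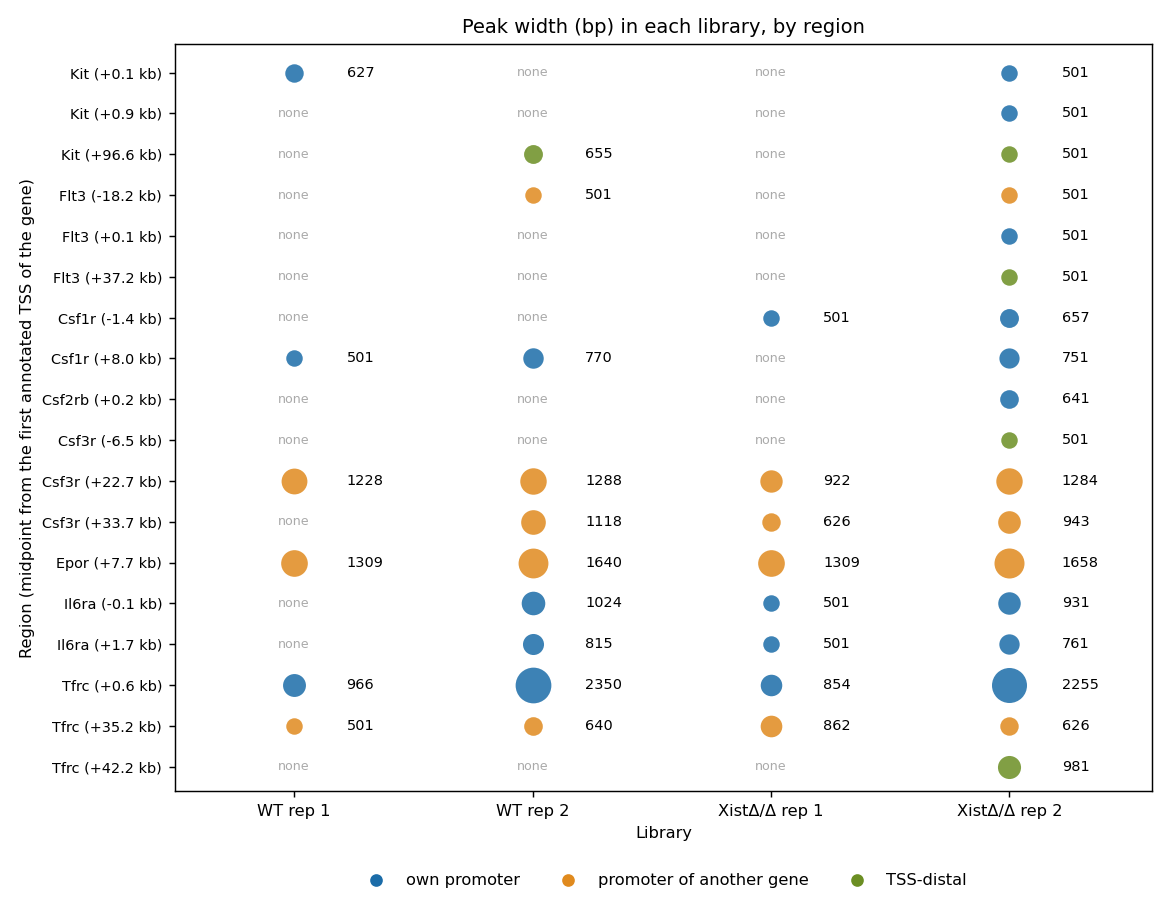
Peak width (bp, printed beside each point, point area growing with width) of the 18 regions in each library, with regions on the y axis named by gene and distance of their midpoint in kb from the first annotated TSS. The 6 regions with a point only in the last column are those of XistΔ/Δ replicate 2, and the Csf1r region upstream of the gene is the one with points in both XistΔ/Δ columns and neither WT column.

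Own-promoter regions of the set were counted beside those of all protein-coding genes. A consensus own-promoter region was found at 4 of 9 members (Kit, Csf1r, Il6ra, Tfrc), against 47.3% of protein-coding genes. With a promoter window of 1 kb it was found at 3, without Csf1r. An own-promoter region called in all 4 libraries was found at 1 of 9 (Tfrc), against 36.1%. In single libraries, 3, 3, 3 and 6 members had an own-promoter peak (33.3%, 33.3%, 33.3% and 66.7%, WT before XistΔ/Δ), against 39.9%, 48.0%, 39.8% and 49.3% of protein-coding genes. The members' gene bodies have a median length of 28096 bp against 17414 bp for all protein-coding genes, so their loci were somewhat longer.

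Between genotypes, no total over the 9 loci differed by more than the spread between libraries. The number of peaks was 8 ± 2.83 in WT and 13 ± 7.07 in XistΔ/Δ (mean ± SD, n = 2 each; two-sided exact permutation test, p = 0.667), a difference of 2 within replicate 1 and of 8 within replicate 2. Members with an own-promoter peak numbered 3 ± 0 and 4.5 ± 2.12 (exact permutation p = 1), with differences of 0 and 3 within the replicate numbers. The summed width of own-promoter peaks was 2094 bp (WT) and 2357 bp (XistΔ/Δ) in replicate 1 and 4959 bp (WT) and 7499 bp (XistΔ/Δ) in replicate 2, with means of 3526.5 ± 2026 and 4928 ± 3636 bp (exact permutation p = 0.667). TSS-distal peaks summed to 0 bp in both replicate 1 libraries and to 655 bp (WT) and 2484 bp (XistΔ/Δ) in replicate 2 (exact permutation p = 1). After Benjamini-Hochberg adjustment over these 4 exact permutation tests every p was 1. With 2 libraries against 2 the test cannot give a p below 0.333.

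The size of the difference depended on XistΔ/Δ replicate 2. Without XistΔ/Δ replicate 2 the difference was 0 peaks and 0 members, and the XistΔ/Δ minus WT difference was -1169.5 bp in own-promoter width and -327.5 bp in distal width. Without WT replicate 1 the difference in own-promoter width was -31 bp. Leaving out 1 library sets unequal depths against each other, and within replicate 1, where depths were close, XistΔ/Δ had 2 more peaks and 263 bp more own-promoter width. Within replicate 2 it had 8 more peaks and 2540 bp more. Per 1000 peaks of the list, the 9 loci held 0.628 peaks in each WT library against 0.794 and 0.994 in the XistΔ/Δ libraries. The 2 genotypes did not overlap by this measure, with means of 0.628 ± 0.000316 and 0.894 ± 0.141 (exact permutation p = 0.333, the smallest the design allows). It was not among the planned tests adjusted above. The measure rests on 6 and 10 peaks in WT and 8 and 18 in XistΔ/Δ, so the small WT SD says little of the spread. In the top 9553 peaks of each list, however, the loci held 6 (WT) and 8 (XistΔ/Δ) peaks in replicate 1 and 5 in each replicate 2 library, and all TSS-distal peaks were gone. XistΔ/Δ replicate 2 lost 13 of its 18 peaks in this way and WT replicate 2 lost 5 of 10. In these shortened lists 6 consensus regions were left, and 3 of them were called in all 4 libraries, namely the Tfrc promoter and the starts of Mrps15 and Swsap1.

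**Figure D4:**
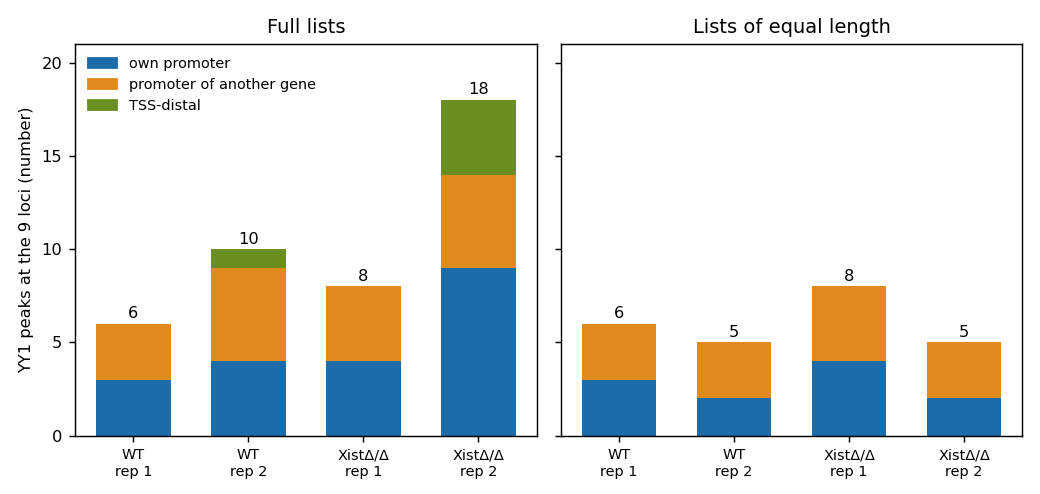
Number of YY1 peaks at the 9 loci per library, stacked by own promoter, promoter of another gene and TSS-distal, in the full lists (left) and in lists of 9553 peaks each (right). XistΔ/Δ replicate 2 falls from 18 to 5 peaks, and no TSS-distal peak is left in the right panel.

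By rank, 2 of the 12 consensus regions were higher in XistΔ/Δ within both replicate numbers (Csf1r upstream and the Swsap1 start), against 19.6% of consensus regions genome-wide. Another 3 were lower (Csf1r intron, Mrps15 start, Tfrc promoter), against 18.8%, and 7 moved in opposite ways or were absent from a replicate number. With the order in the list as rank instead of width, 4 were higher (Csf1r upstream, the Swsap1 start, the Il6ra intron and the Tnk2 start), against 20.9% of consensus regions, and 0 were lower, against 19.3%. The Csf1r upstream region and the Swsap1 start were higher by both ranks, and the 3 lower regions were not lower by list order. These counts have no test. At the Swsap1 start the peak was 1309 bp wide in replicate 1 of both genotypes, so by width only its rank differed there.

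The promoters of related genes gave a setting for these values. Of 36 other cytokine receptors, an own-promoter peak was called at 14 (WT) and 13 (XistΔ/Δ) in replicate 1 and at 18 (WT) and 21 (XistΔ/Δ) in replicate 2. A consensus own-promoter region was present at 18 of them (50%) and one in all 4 libraries at 12 (33.3%). Of all protein-coding genes, 47.3% and 36.1% had these. The widest of the latter were at Ifngr2, a chain of the interferon-γ receptor (1680, 3435, 1369 and 3576 bp, WT before XistΔ/Δ), Csf2ra, the GM-CSF receptor α chain that pairs with the Csf2rb product (2590, 2474, 1889 and 2724 bp), and Tgfbr1, a TGF-β receptor (1353, 1678, 1416 and 3167 bp). No peak was found in the locus of 4 of the 36, Il2rb, Osmr, Il1rl1 and Prlr, against 35.3% of protein-coding genes.

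Of 25 genes that carry the signal inside the cell (kinases, STAT factors, adaptors and inhibitors), an own-promoter peak was called at 19 (WT) and 22 (XistΔ/Δ) in replicate 1 and at 22 (WT) and 25 (XistΔ/Δ) in replicate 2. Of the 25, 23 (92%) had a consensus own-promoter region and 18 (72%) had one in all 4 libraries, against 47.3% and 36.1% of protein-coding genes. The widest were at Sh2b3, an inhibitor of cytokine signalling (1714, 3995, 1525 and 3392 bp), Cbl, a ubiquitin ligase that removes activated receptors (2088, 2859, 1702 and 2592 bp), and the adaptor Gab2 (1650, 2095, 1145 and 2120 bp). Of 13 ligand genes, 4 (30.8%) had a consensus region, and those bound in all 4 libraries were Flt3l (2444, 2805, 1907 and 2733 bp) and Epo (772, 1166, 1077 and 1877 bp). The loci of Kitl, Csf2, Il3, Il7 and Il34 held no peak. Of 11 genes of iron uptake and storage, 7 (63.6%) had a consensus region, each in all 4 libraries, the widest at the ferritin genes Fth1 (2209, 3232, 2295 and 2766 bp) and Ftl1 (928, 2833, 627 and 3665 bp) and at Aco1 (927, 1613, 1017 and 1321 bp). Slc25a37, the mitochondrial iron importer, had no peak in its locus. In none of the 4 lists was an own-promoter region called in both libraries of 1 genotype and in neither of the other. Such regions were rare genome-wide, at 1.24% (XistΔ/Δ) and 0.452% (WT) of consensus regions.

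For each member with a consensus own-promoter region, the gene of these lists with the most similar percentiles was sought among 52 genes, taking the best own-promoter percentile in each library and summing the absolute differences over the 4 libraries. Tfrc was closest to Ifnar2, a chain of the type I interferon receptor, with a summed difference of 8.01 (Ifnar2 at 74.3 and 90.7 in WT, at 66.9 and 91.2 in XistΔ/Δ). Il6ra was closest to Stat2 (17.1). The nearest genes to Csf1r and Kit were farther away, Jak3 at 38.0 and Ghr at 39.3. The likeness is a description over 4 libraries that share depth within a replicate number.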

How the data were processed

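YY1 ChIP-seq peaks of 4 libraries were analysed (2 WT, 2 XistΔ/Δ); the 8 histone samples of the 12 in the series were not analysed here. Per the methods, chromatin was digested with micrococcal nuclease, and reads of mapping quality under 30 and duplicates were removed. The submitters' processing notes name Trim Galore, Bowtie2 2.3.5.1, SAMtools 1.10, Picard 2.0.1, deepTools 3.5.0, HOMER 4.9.1 and DiffBind 3.0.13, and the build mm10. Per the file headers, HOMER peaks were called in each library without an input library, with a peak size of 500 bp, a minimum distance of 500 bp, a false discovery rate of 0.001 and at least 4 fold over the surroundings. Peak calls therefore depend on depth, with thresholds of 22, 33, 22 and 37 tags per peak (WT before XistΔ/Δ), and no input corrects for accessibility or copy number, which were not measured here. The score in the lists the authors deposited is 1 for every peak and ranks nothing, so width was used.

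Peaks sharing at least 1 bp were merged into regions with scripts in Python 3.11.15 (numpy 2.4.6, scipy 1.17.1, matplotlib 3.10.9), tested on simulated data. Consensus regions, called in at least 2 of 4 libraries, and the 3 kb promoter window follow the study. Totals per library were compared with two-sided exact permutation tests. Directory names in the headers carry 1 number for both replicate 1 libraries and another for both replicate 2 libraries, of unstated meaning, so values within replicate numbers are given. The headers number replicates otherwise than the labels, which were followed. The members and gene lists were chosen with earlier results of these data known. All members are named. From each list the text names the 3 widest own-promoter regions among genes with a peak in all 4 libraries, any genotype-specific region and up to 5 genes without a peak. Sequences come from GRCm38, with RefSeq starts for 7 of the 9 members. Alternatives were other flanks and promoter windows, lists of equal length, wider peaks only, other overlap and consensus rules, the list order as rank, a replicate block and leaving out each library.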

Additional observations from a re-analysis of the deposited data

How the results depend on the processing

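In lists of equal length the XistΔ/Δ minus WT difference fell to 1 peak, 0 members with an own-promoter peak, 37.5 bp of own-promoter width and 0 bp of distal width. The loci then held 6 consensus regions, 0 specific to XistΔ/Δ and 1 ranked higher. With only peaks wider than 501 bp the difference was 0 members, with 0 regions specific to XistΔ/Δ and 1 ranked higher. Without a flank there were 5 consensus regions, 0 specific to XistΔ/Δ and 0 ranked higher, and with a flank of 50 kb there were 22, with 1 specific to WT and 5 ranked lower. Counting only regions called in all 4 libraries left 4. With the list order as rank, 4 regions were higher and 0 lower, against 20.9% and 19.3% of consensus regions. The cause of these shifts was not tested, except that the shorter lists and narrower loci hold fewer peaks by construction.

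Leaving out 1 library at a time gave differences of 0 to 10 peaks, 0 to 3 members, -1169.5 to 3972.5 bp of own-promoter width and -327.5 to 2156.5 bp of distal width, and 8 to 11 consensus regions. Regions specific to XistΔ/Δ ranged from 1 to 7 (4 without WT replicate 2, 7 without XistΔ/Δ replicate 1), since fewer libraries then had to differ. Those specific to WT ranged from 0 to 1 (1, the Csf1r intron, without XistΔ/Δ replicate 2). Ranks need both replicate numbers and could not be formed without a library.

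With a replicate block, in which genotypes were exchanged only within a replicate number, the differences were by construction the same and the exact permutation p was 0.5 for peaks and own-promoter width and 1 for members and distal width, where 0.5 is the smallest possible. It changed no call. Merging only peaks that overlapped by at least 50% of the shorter changed no count of regions. A promoter window of 1 kb left the 12 consensus regions and their calls as they were, but 3 of them turned from own-promoter to TSS-distal, and the differences became 859 bp of own-promoter width and 1457 bp of distal width. Depth limits these results: a locus without a peak in a replicate 1 library may hold one that was not detectable at that depth, and width says little of binding strength near 501 bp.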

Other observations

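No expression was measured, so the label of the cells could not be checked by it. As a description, own-promoter peaks were counted at marker genes. Of 6 genes of blood progenitors, 4 (WT) and 3 (XistΔ/Δ) had one in replicate 1 and 3 (WT) and 4 (XistΔ/Δ) in replicate 2. Runx1 (3710, 4592, 2066 and 3317 bp, WT before XistΔ/Δ), Myb (1576, 3105, 670 and 2175 bp) and Spi1 (968, 1526, 1190 and 2053 bp), transcription factors of early blood cells, had one in all 4 libraries, while Cd34 had one in XistΔ/Δ replicate 2 alone, Gata2 in WT replicate 1 alone, and the Mpo locus had none. Of 8 genes of mature blood cells, 0 (WT) and 1 (XistΔ/Δ) had one in replicate 1 and 3 (WT) and 2 (XistΔ/Δ) in replicate 2, and none had one in all 4 libraries. Of all protein-coding genes, 39.9% (WT) and 39.8% (XistΔ/Δ) had one in replicate 1 and 48.0% (WT) and 49.3% (XistΔ/Δ) in replicate 2, and 36.1% had an own-promoter region called in all 4 libraries.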
